A study of Mus musculus with 16 samples.

Results

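Axon guidance ligands and receptors were examined across the cell types of the mouse lung as a set of 66 genes, out of 38003 in the deposited table. The genes were picked by a rule on their symbols. The set held 20 semaphorins of classes 3 to 7, 9 plexins, 3 Slits, 4 Robo receptors, 4 netrins, 4 Unc5 receptors, 5 ephrin-A and 3 ephrin-B ligands, and 9 EphA and 5 EphB receptors. Of these, 55 passed a filter on low counts in at least 1 of the 19 cell types that could be tested. The 11 members that passed in none were Efna3, Efna4, Efnb3, Epha8, Epha10, Ephb6, Ntn5, Robo3, Sema4g, Sema5b and Slit1.

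Guidance cues are secreted or membrane-bound proteins that steer growing axons, and many also act on blood vessels and immune cells. Slits bind Robo receptors, netrins bind Unc5 receptors, Dcc and neogenin, and semaphorins bind plexins, in part through neuropilin co-receptors. Ephrins are held on the cell surface and signal to Eph receptor kinases on neighbouring cells, often in both directions. In the lung these genes are known mainly for the growth of vessels and airways and for innervation.

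Live cells sorted from dissociated mouse lungs were profiled with a split-pool barcoding kit whose first step primes transcripts with both oligo(dT) and random hexamers, and the deposited table assigns each cell to a sample, a drug group, a seeding state and a cell type. Mice received vehicle, 6-OHDA or BIBO3304, each with or without seeded PDAC (pancreatic ductal adenocarcinoma) cells. 6-OHDA (6-hydroxydopamine) is a toxin that destroys catecholamine nerve endings, and BIBO3304 blocks the neuropeptide Y receptor encoded by Npy1r. There were 3 samples in each of the vehicle, 6-OHDA and BIBO3304 groups without PDAC cells and 2 in each of the vehicle-PDAC, 6-OHDA-PDAC and BIBO3304-PDAC groups. The sources used here do not give strain, age, sex, dose or the PDAC line, and nothing says that the numbered samples are separate mice. P-values therefore measure the spread between these samples, which may be technical.

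The 80449 cells fell into 22 deposited types, and the samples held 10003796 to 32580698 transcripts each. Median transcripts per cell were 1640 to 1906 in the vehicle samples, 2078 to 2223 with 6-OHDA and 2631 to 4846.5 with BIBO3304. With PDAC cells they were 2411 and 3411 under vehicle, 2559 and 2729 under 6-OHDA, and 1623 and 2417 under BIBO3304. A library went against its label: vehicle-PDAC 2 held 0 cells of the deposited cancer type among its 9157 cells, which allows a share of up to 0.0328% for counting error alone. Vehicle-PDAC 1 held 56 such cells, the other PDAC samples 33 to 75, and the vehicle samples 1 or 2. Comparisons of single members that use vehicle-PDAC 2 are given with and without it. Those of the other guidance genes are given only with it. Each marker list written for a deposited type was highest in the type of that name, except the arterial list, which was highest in adventitial fibroblasts, so the arterial part of the large-vessel type was not checked.

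A pair of members shows how differently the stretch before a transcription start can be built in this set, and both return below: Robo4, which was seen in endothelial types, and Plxna2, which was seen in most types and was called in alveolar fibroblasts. The 250 bases upstream of each start are given from RefSeq on GRCm38.p6, plus strand, with CpG pairs in capitals, for chr9:37401722-37401971 and chr1:194619579-194619828. The files themselves were built on mm39, so these positions were not joined to any measurement.
Robo4: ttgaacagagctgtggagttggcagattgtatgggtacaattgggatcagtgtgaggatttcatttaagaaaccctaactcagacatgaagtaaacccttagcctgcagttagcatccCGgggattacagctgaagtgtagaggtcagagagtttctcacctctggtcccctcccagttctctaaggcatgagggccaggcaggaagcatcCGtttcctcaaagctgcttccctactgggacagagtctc
Plxna2: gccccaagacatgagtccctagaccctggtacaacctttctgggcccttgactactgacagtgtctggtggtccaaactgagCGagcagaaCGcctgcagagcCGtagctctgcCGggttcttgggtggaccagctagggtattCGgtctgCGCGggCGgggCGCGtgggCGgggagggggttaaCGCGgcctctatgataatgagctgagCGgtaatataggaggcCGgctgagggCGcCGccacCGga
The Robo4 window held 2 CpG pairs and no copy of the GC box GGGCGG on either strand. The Plxna2 window held 18 CpG pairs and 2 GC boxes. Over the 73 windows found for 57 members, 69.9% held a GC box, against 32.7% of all 32851 windows of the same length, and the median number of CpG pairs was 15 against 6. These are matches of letters and not evidence of bound factors.

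Levels are given as CPM, a gene's counts scaled to the same total in each library, from the transcripts summed over the cells of a type in a sample, as the median over samples with the lowest and highest sample in brackets. The table has no transcript lengths, so a level is compared between types for 1 gene and not between genes. Because the types were made by clustering cells on expression, these levels are a description without a test. At a median of 20 CPM or more in at least 1 type there were 47 members, and the other 19 were lower in all types. Among types with at least 14 samples, 22 of the 47 were highest in an endothelial type (9 in general capillaries, 7 in lymphatics, 5 in aerocyte capillaries and 1 in large vessels), 12 in a mesenchymal type, 8 in an epithelial type and 5 in an immune type. For 9 of the 47 the sample ranges of the 2 highest types did not overlap. These shares were not counted over all genes, so they do not show whether the set is unusual.

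**Figure D1:**
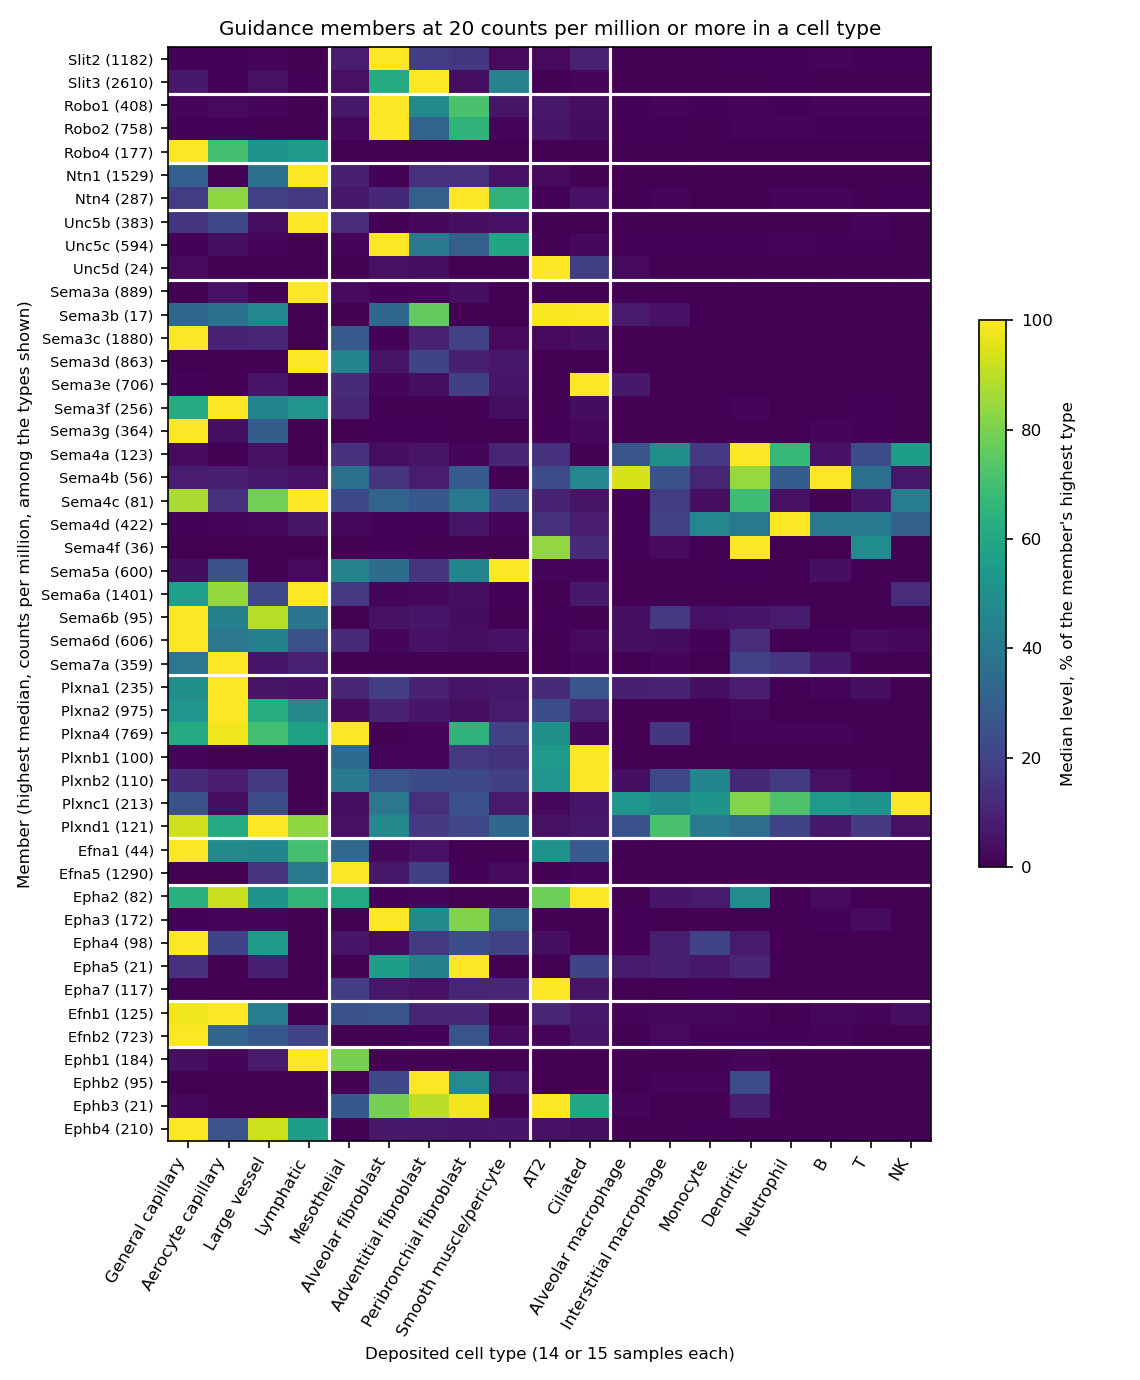
Median level of the 47 members (rows, grouped by family) in 19 cell types (columns), as a percentage of the member's highest type among those shown; the number beside each symbol is that highest median in CPM. Of the rows, 22 are brightest in the 4 endothelial types on the left, 12 in mesenchymal types, 8 in epithelial types and 5 in the immune types on the right. Sema3b reached 20 only in type 1 cells, which are not drawn.

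Slit ligands were highest in fibroblasts, and the receptors Robo1 and Robo2 were also highest in a fibroblast type. Slit3 stood at 2610.1 (1833 to 3743) in adventitial fibroblasts, 1601 (1229 to 2119.6) in alveolar fibroblasts and 1167 (466 to 2085) in smooth muscle cells and pericytes, with overlapping ranges. Slit2 was highest in alveolar fibroblasts, at 1182 (744 to 1369), and its range there lay above that of adventitial fibroblasts, 214 (116 to 269). Robo2 had medians of 758 (533 to 1104) in alveolar, 492 (354 to 1034) in peribronchial and 243 (161 to 420) in adventitial fibroblasts. Robo1 followed the same order of types, at 408, 292 and 196, with each neighbouring pair overlapping. Robo4, the Robo receptor known from endothelium, had its 4 highest medians in the endothelial types: 177 (103 to 226) in general capillaries, 125 (67.9 to 158) in aerocytes, 97.1 in lymphatics and 91.3 in large vessels. Among the other types with at least 14 samples, the highest Robo4 median was 1.001, in interstitial macrophages.

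Netrins and their Unc5 receptors were split between vessels and mesenchyme. Ntn1 was highest in lymphatic endothelium, at 1529 (599 to 2020), then in large vessels, at 575 (282 to 824), and in general capillaries, at 459 (339 to 636). Unc5b, an endothelial netrin receptor, was also highest in lymphatics, at 383 (208 to 729), above the whole range of the next type, aerocytes, at 84.3 (17.8 to 163). Ntn4, a netrin of basement membranes, was instead highest in peribronchial fibroblasts, at 287 (134 to 414), with aerocytes at 239 (178 to 341) overlapping them. The receptor Unc5c was highest in mesenchymal cells, with 594 (393 to 872) in alveolar fibroblasts and 349.6 (124 to 888) in smooth muscle cells and pericytes. Unc5d had its highest median in type 2 cells, at only 23.7 (2.85 to 35.9). Dcc, the other netrin receptor family, had its highest median in adventitial fibroblasts, at 30.7 (11.8 to 102), and neogenin (Neo1) in mesothelium, at 192 (66.5 to 248).

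Secreted class 3 semaphorins differed between kinds of endothelium. Sema3c was highest in general capillaries, at 1880.4 (1324 to 2837), and the next type, mesothelium, lay below that range at 532 (382 to 920.3). Sema3g, a semaphorin of endothelium, was highest in general capillaries, at 364 (325 to 517), above large vessels, at 108 (50.8 to 206). Sema3f was highest in aerocytes, at 256 (217 to 351), above the range in general capillaries, 157 (88.3 to 203). Lymphatic endothelium was highest for 2 more: Sema3a, at 889 (535 to 1256) against 44.5 (14.7 to 109) in aerocytes and 510.2 and 737 in the only 2 samples with 20 type 1 cells, and Sema3d, at 863 (525 to 1326) with mesothelium overlapping at 393 (214 to 839). Sema3e, the ligand of plexin D1, was highest in epithelium, with 706 (356 to 992) in ciliated cells and 1334 and 1813 in the only 2 samples with 20 type 1 cells. The neuropilin co-receptors differed too, Nrp1 being highest in aerocytes, at 1320.3 (906 to 1891), and Nrp2 in lymphatics, at 1209.9 (898 to 2088).

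Membrane-bound semaphorins included members highest in endothelium, in mural cells and in leukocytes. Sema6a was highest in lymphatics, at 1401 (916 to 2188), and in aerocytes, at 1178 (639 to 1696), and Sema6d in general capillaries, at 606 (421 to 711). Sema7a, a lipid-anchored semaphorin, was highest in aerocytes, at 359 (243 to 625), above general capillaries, at 142 (88.4 to 217). Sema5a was highest in smooth muscle cells and pericytes, at 600.5 (190.3 to 956). Among leukocytes, Sema4d, the ligand of plexin B1, had 422 (172 to 991) in neutrophils and overlapped with monocytes, at 197 (137 to 394). Sema4a was highest in dendritic cells, at 123 (88.0 to 343), and Sema4b in B cells, at 56.0 (24.99 to 104), with alveolar macrophages nearly level at 52.5 (31.6 to 74.7).

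Of the plexins, which are the semaphorin receptors, Plxna2 was highest in aerocytes, at 975 (593 to 1626), with large vessels overlapping at 603 (366 to 1157). Plxna4 was spread over mesothelium, at 769 (375 to 1043), aerocytes, at 753 (506 to 1106), large vessels, at 539, and peribronchial fibroblasts, at 501, and was near 0 in alveolar fibroblasts, at 5.74 (3.14 to 9.45). Among immune types Plxna4 was highest in interstitial macrophages, at 120.6 (23.0 to 363). Plxna1 was highest in aerocytes, at 235 (107 to 276), with general capillaries overlapping at 116 (76.2 to 152). Plxnd1, the receptor of Sema3e, was nearly level in large vessels (121), general capillaries (112) and lymphatics (101). Among the types with more than 2 samples, Plxnb1 and Plxnb2 were highest in ciliated cells, at 99.7 (23.7 to 178) and 109.9 (62.9 to 179). In the types with 2 samples, Plxnb1 read 46.1 and 209 in type 1 cells and 105.0 and 129 in club cells. Plxnc1, a receptor of Sema7a, was highest in leukocytes, with 213 (106 to 410) in natural killer cells, 174 (95.7 to 237) in dendritic cells and 154 (43.7 to 288) in neutrophils.

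The ephrin-B2 and EphB4 pair, known from arteries and veins, was highest in the same cells. Efnb2 had 723 (469 to 966) in general capillaries, above the range in aerocytes, 237 (129.7 to 365). Ephb4 had 210.1 (103 to 299) in general capillaries and 194 (83.7 to 346) in large vessels. Efna5, a ligand of EphA receptors, was highest in mesothelium, at 1290.4 (644 to 1855), followed by lymphatics, at 515 (99.8 to 682). Efna1, an ephrin-A known to be induced by inflammatory signals in endothelium, was highest in general capillaries, at 43.5 (8.60 to 63.2), and Efnb1 was level in aerocytes, at 125 (94.5 to 178), and general capillaries, at 122 (95.9 to 174). Among Eph receptors the top types differed: Epha3 in alveolar fibroblasts, at 172 (118 to 238), Epha7 in type 2 cells, at 117 (77.6 to 172), Ephb1 in lymphatics, at 184 (112 to 422), and Ephb2 in adventitial fibroblasts, at 95.2 (46.5 to 157). Epha2 had 82.4 (27.6 to 140.5) in ciliated cells and 129 and 147 in the 2 samples with enough club cells, and Ephb3 had 21.1 (14.2 to 29.0) in type 2 cells. The cancer cells, counted in 5 samples, had 429 (304 to 995) for Efna5, 206 (159 to 392) for Sema3c and 150.5 (115 to 271) for Epha4, the highest Epha4 median of any type.

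General capillary cells and aerocytes, the gas-exchange capillary cells, were compared within the same sample. The same counts were not made over all genes, and the types come from clustering on expression. The counts below describe single genes and are not read as a result about the set. Of 27 members at 20 CPM or more in either type, 11 were higher in general capillaries in all 15 samples (Efnb2, Epha4, Ephb4, Ntn1, Plxnc1, Robo4, Sema3c, Sema3g, Sema4c, Sema6d and Slit3). Another 8 were higher in aerocytes in all 15 (Ntn4, Plxna2, Plxna4, Sema3a, Sema3f, Sema5a, Sema6a and Sema7a), and 8 went both ways. The ratio of the medians, general capillary to aerocyte, was 40.9 for Ntn1, 23.4 for Sema3g, 9.92 for Sema3c and 3.05 for Efnb2, and 0.11 for Sema3a, 0.40 for Sema7a and 0.52 for Plxna2. Efnb1, another ephrin-B, did not separate them, being higher in general capillaries in 8 of 15 samples.

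**Figure D2:**
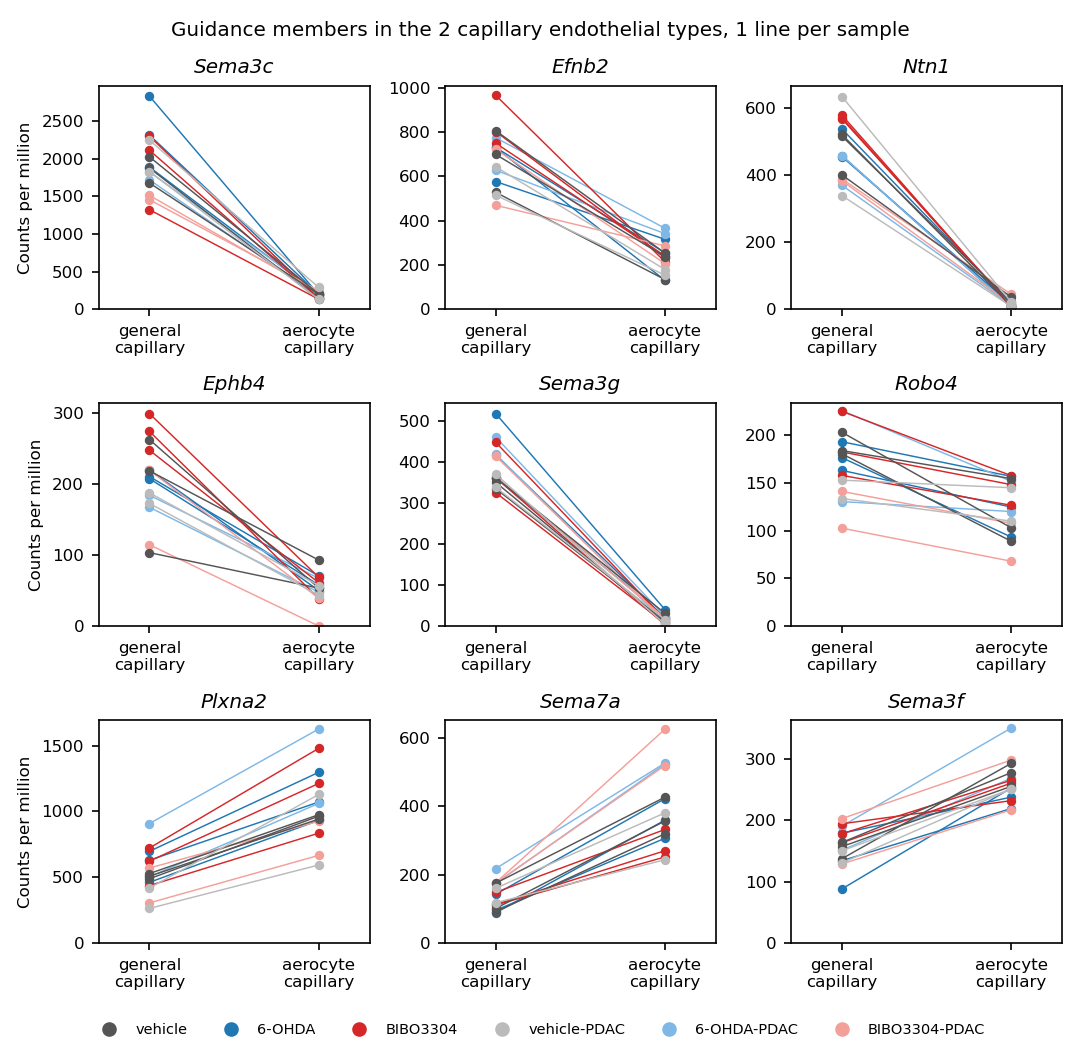
CPM (vertical axes, from 0) of 9 members in general capillary and aerocyte cells, 1 line per sample, coloured by group. All 15 lines fall from left to right for Sema3c, Efnb2, Ntn1, Ephb4, Sema3g and Robo4 and rise for Plxna2, Sema7a and Sema3f.

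Fibroblast kinds were compared in the same way, again without a count over all genes. Of 23 members at 20 or more in alveolar or adventitial fibroblasts, 9 were higher in alveolar cells in all 15 samples, among them Slit2 (ratio of medians 5.52), Robo2 (3.12), Plxnc1 (2.91) and Unc5c (2.46). The 8 that were higher in adventitial cells in all 15 included Ntn1, Sema3c and Ephb2, with ratios of 0.08, 0.12 and 0.22. Peribronchial fibroblasts, the fibroblasts around airways, stood apart in Plxna4, Sema3a, Sema3e and Efnb2, each higher there than in both other kinds in all 15 samples.

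Drug and seeding effects were tested by edgeR's quasi-likelihood test on counts summed per sample and type, with Benjamini-Hochberg adjustment over all genes of a type and a threshold of 0.05; pairs of a member and a type were counted, over 55 members. In each sentence on a comparison the share of all gene and type pairs that passed the main edgeR test is given as the background. No such share is given for DESeq2 or the other settings. Values by sample are normalized CPM, scaled by edgeR's TMM factors, and fold changes are log2 with their standard errors. The comparisons share samples: each PDAC group serves in a drug comparison and a seeding comparison, so they are not independent. Pairs named for a small p without passing were picked in a way that favours groups without overlap. Their separation is a description and adds no evidence.

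**Figure D3:**
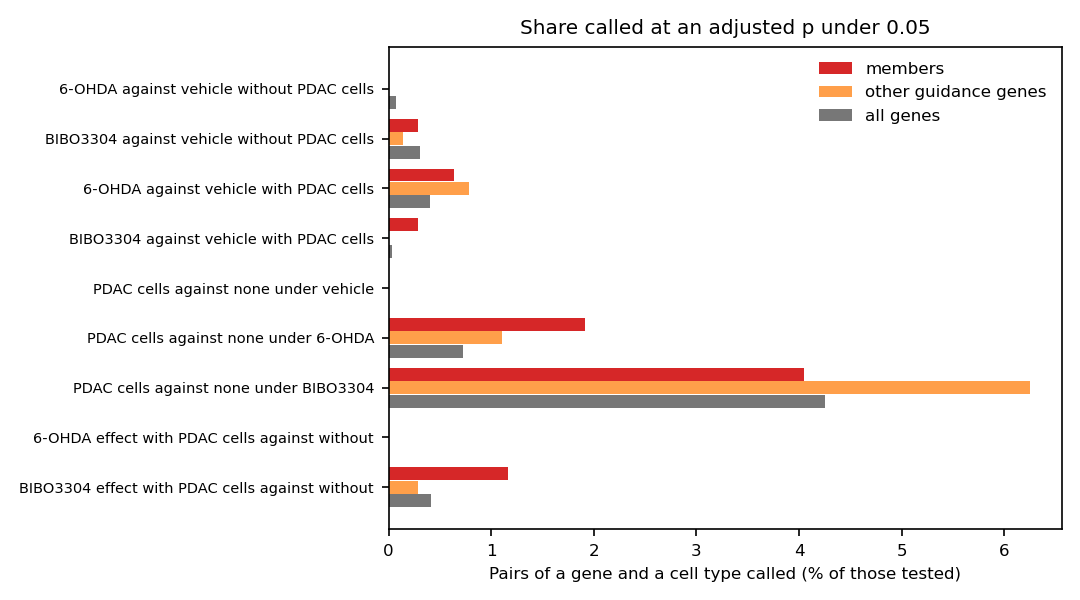
Share of tested pairs that passed an adjusted p of 0.05 (horizontal axis, %) for the 66 members, the 63 other guidance genes and all genes in the 7 comparisons and 2 differences of effects. Members lie near all genes for PDAC cells against none under BIBO3304, at 4.05% and 4.25%.

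Without PDAC cells, 6-OHDA left 0 of 346 member pairs past the threshold by edgeR, beside 0.0669% of all pairs. At an unadjusted p under 0.05 there were 36 (10.4%, against 7.72% of all pairs), and DESeq2 called 3. The pair with the smallest unadjusted p was Efnb1, the ephrin-B ligand, in general capillaries, at 176, 184 and 170.0 in vehicle against 95.7, 108.9 and 118 with 6-OHDA. All 3 treated samples were below all 3 vehicle samples, the log2 difference was -0.71 ± 0.16, and the adjusted p was 0.0895. In alveolar fibroblasts, Robo2 stood at 760.4, 596 and 676 in vehicle and 1053, 1008 and 980.5 with 6-OHDA (log2 difference 0.58 ± 0.14, adjusted p = 0.341). Unc5c, the netrin receptor, stood at 567, 419 and 476 against 796, 813 and 619 (0.60 ± 0.16, adjusted p = 0.402). Both pairs of groups were fully separated, but neither difference passed. Sema4c in interstitial macrophages read 37.6, 42.4 and 77.1 against 17.1, 6.83 and 9.04 (-2.29 ± 0.51, adjusted p = 0.101). Ephb2 in dendritic cells read 1.89, 9.36 and 16.8 against 36.2, 37.7 and 46.8 (2.05 ± 0.53, adjusted p = 0.0747). These groups did not overlap either, and did not pass. Counts were few, at 16, 14 and 29 against 6, 4 and 2 for Sema4c and 1, 3 and 9 against 12, 9 and 9 for Ephb2.

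BIBO3304 without PDAC cells gave 1 call in 346 pairs (0.289%), close to the 0.307% of all pairs. The call was Plxna2, a semaphorin receptor, in alveolar fibroblasts: 91.5, 67.0 and 76.0 in vehicle, 137, 114.6 and 146 with BIBO3304. All 3 treated samples were higher, with a log2 fold change of 0.74 ± 0.15 (adjusted p = 0.0263). The call was lost without vehicle 2, vehicle 3 or BIBO3304 3 (adjusted p up to 0.127) and when only the compared groups were fitted. Plxna4 in smooth muscle cells and pericytes read 69.4, 123 and 132 in vehicle and 453, 506 and 217 with BIBO3304, all higher, but did not pass (1.82 ± 0.40, adjusted p = 0.0649). These values rest on 5, 7 and 14 counts in vehicle and 26, 44 and 16 with BIBO3304. Robo2 in alveolar fibroblasts read 962, 1059 and 895 against the vehicle values above (0.52 ± 0.14, adjusted p = 0.0707). Plxna4 in aerocytes read 687, 611 and 599 against 894, 1155 and 826 (0.59 ± 0.17, adjusted p = 0.204), and Sema4c in interstitial macrophages 37.6, 42.4 and 77.1 against 21.2, 5.28 and 23.4 (-1.63 ± 0.46, adjusted p = 0.135). None of these 4 pairs overlapped between the groups, and none passed.

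Below the threshold, member pairs leaned upward with BIBO3304. At an unadjusted p under 0.05 there were 45 pairs higher and 19 lower (18.5% together), where all pairs gave 6219 higher and 8443 lower (12.9%). The median log2 difference was 0.12 over the member pairs, 0.09 over pairs of the other guidance genes described at the end and 0.00 over all pairs. With RLE in place of TMM factors the member median was 0.12, with 46 pairs higher and 19 lower. The BIBO3304 samples also had more transcripts per cell than the vehicle samples, and the part of that depth in these counts was not tested.

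With PDAC cells present, 6-OHDA against vehicle gave 2 calls in 314 member pairs (0.637%), beside 0.405% of all pairs, and BIBO3304 against vehicle gave 1 in 346 (0.289%), beside 0.0317%. All 3 were in interstitial macrophages, where 16 members were tested. Of all 6443 genes there, 3.52% passed for 6-OHDA and 0.45% for BIBO3304. Plxna4 read 109 and 136 in the vehicle-PDAC samples, 34.3 and 44.3 in the 6-OHDA-PDAC samples and 34.8 and 22.0 in the BIBO3304-PDAC samples. Both drug groups lay below both vehicle samples, at -1.64 ± 0.37 (adjusted p = 0.0139) and -2.15 ± 0.42 (adjusted p = 0.0203). Without vehicle-PDAC 2 neither passed (-1.48 with adjusted p = 0.106, and -1.99 with adjusted p = 0.111). Leaving out either sample of the drug group also ended each call, and so did fitting only the compared groups for BIBO3304. Sema4c, a membrane-bound semaphorin, read 26.6 and 21.9 under vehicle and 5.54 and 3.41 under 6-OHDA (-2.37 ± 0.54, adjusted p = 0.0130). It kept its call without vehicle-PDAC 2 (-2.49, adjusted p = 0.0320) but lost it without vehicle-PDAC 1, without either 6-OHDA-PDAC sample, and without the 5% of cells with the most transcripts. It rests on 5 to 27 counts per sample. In these macrophages the 5 markers of the type summed to 637 to 654 CPM in the vehicle-PDAC, 522 to 661 in the 6-OHDA-PDAC and 439 to 629 in the BIBO3304-PDAC samples, and the 5 dendritic markers to 67.3 to 83.7, 16.7 to 20.6 and 38.02 to 39.1. In the same order of groups the 4 monocyte markers summed to 186 to 294, 391 to 484 and 215 to 362. The 4 general epithelial markers summed to 20.6 to 24.3, 31.1 to 49.3 and 46.4 to 60.04. The 5 venous markers summed to 43.4 to 48.7, 11.96 to 25.8 and 34.0 to 39.1, and the 3 general endothelial markers to 53.2 to 63.3, 70.2 to 78.9 and 60.9 to 80.1. Their part in the calls was not tested.

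Of the pairs with the next smallest p in these comparisons, none passed. Under 6-OHDA with PDAC cells these were Ntn4 in general capillaries, at 68.8 and 59.7 under vehicle and 24.4 and 33.6 (adjusted p = 0.248), Sema6a in alveolar fibroblasts, at 34.5 and 34.6 against 19.2 and 20.6 (adjusted p = 0.156), and Plxna2 in general capillaries, at 419 and 304 against 521 and 869 (adjusted p = 0.270). Under BIBO3304 with PDAC cells they were Plxna2 in alveolar fibroblasts (-0.75 ± 0.20, adjusted p = 0.208), Sema7a in aerocytes (0.84 ± 0.25, adjusted p = 0.288), Unc5c in alveolar fibroblasts (-0.63 ± 0.20, adjusted p = 0.256) and Sema3g in alveolar fibroblasts (2.33 ± 0.73, adjusted p = 0.262). The groups of all 7 pairs were separated, which picking them by a small p favours. Without vehicle-PDAC 2 all 7 kept their direction and none passed, Sema3g then standing at 3.67 ± 0.91. Sema3g rests on few counts, 3 and 8 in the vehicle-PDAC samples and 26 and 10 in the BIBO3304-PDAC samples.

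PDAC cells against none under vehicle gave 0 of 346 member pairs by edgeR, beside 0.00176% of all pairs. At an unadjusted p under 0.05 there were 24 pairs (6.94%, against 4.91% of all pairs), and DESeq2 gave 1 call. Leaving out the library without cancer cells left 1 vehicle-PDAC sample. The share of all genes passing in that fit is not given, so the next pair is a description and not a result about the members. Efna5, the EphA ligand, stood in alveolar fibroblasts at 80.5, 66.3 and 78.9 in vehicle, 185 in vehicle-PDAC 1 and 77.02 in vehicle-PDAC 2. The sample with cancer cells was above all others and the sample without them was among the unseeded ones. The difference was 0.81 ± 0.26 with both samples (adjusted p = 0.398). Without vehicle-PDAC 2 it was 1.29 ± 0.22, the lone PDAC sample then being assumed to vary as the other groups do. The cancer cells themselves held Efna5 at 994.6 CPM in vehicle-PDAC 1 and at 304 to 687 in the 6-OHDA-PDAC and BIBO3304-PDAC samples. Their part in the fibroblast values was not tested. Under 6-OHDA, Efna5 read 81.3, 105 and 73.9 without and 154 and 144 with PDAC cells, separated but not past the threshold (0.78 ± 0.26, adjusted p = 0.176). Under BIBO3304 it read 85.9, 64.4 and 70.4 without and 86.9 and 137 with them (0.57 ± 0.27, adjusted p = 0.189).

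The 5 pairs with the smallest p for PDAC cells under vehicle were all higher with PDAC cells, with separated groups, and none passed. Unc5c in alveolar fibroblasts read 567, 419 and 476 without and 890.0 and 669 with them (0.68 ± 0.18, adjusted p = 0.253), and Sema6a in the same cells 21.3, 15.5 and 24.5 against 34.5 and 34.6 (0.71 ± 0.19, adjusted p = 0.259). The plexin receptor Plxna4 read 687, 611 and 599 against 1123 and 905 in aerocytes (adjusted p = 0.621) and 69.4, 123 and 132 against 263 and 289.8 in smooth muscle cells and pericytes (adjusted p = 0.998). Efna1, an ephrin-A ligand, read 29.5, 9.53 and 29.5 against 46.6 and 73.0 in general capillaries (adjusted p = 0.9998). Without vehicle-PDAC 2 these 5 differences lay between 0.71 and 1.25 and did not pass (adjusted p from 0.0658 to 0.998).

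PDAC cells against none under 6-OHDA gave 6 calls in 314 member pairs (1.91%), beside 0.729% of all pairs; 2 were higher (background 0.246%) and 4 lower (background 0.484%). All 6 were in interstitial macrophages, where 9.22% of all 6443 genes passed and 16 members were tested. The marker lists moved in these same cells. The 5 interstitial macrophage markers summed to 865 to 934 CPM in the 6-OHDA samples and 522 to 661 with PDAC cells. The 4 monocyte markers went from 231 to 266 up to 391 to 484, and the 5 dendritic markers went from 72.6 to 127 down to 16.7 to 20.6, with Xcr1 at 0 in both groups. The 4 general epithelial markers went from 4.84 to 14.8 up to 31.1 to 49.3, and the 5 venous markers from 68.2 to 116 down to 11.96 to 25.8. Unlike the venous list, the 3 general endothelial markers rose, from 19.4 to 39.6 up to 70.2 to 78.9. The 7 alveolar macrophage markers summed to 136 to 213 without and 172 to 175 with PDAC cells. Their part in the results for this type was not tested.

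Plxna4 had the smallest p of the 6. In interstitial macrophages it read 262, 108 and 213 with 6-OHDA and 34.3 and 44.3 with 6-OHDA and PDAC cells, each seeded sample below each unseeded one. The fold change was -2.27 ± 0.36 (adjusted p = 0.00047) and kept its call in all 5 fits that left out a sample and under all 7 other settings. Plxnc1, the leukocyte plexin, rose from 114, 88.8 and 58.8 to 235 and 218 (1.34 ± 0.31, adjusted p = 0.00828). Sema4d, the plexin B1 ligand, rose from 51.2, 41.0 and 58.8 to 95.7 and 102.8 (1.03 ± 0.26, adjusted p = 0.0164). In both genes the seeded samples were above all unseeded ones, and each call was lost when either 6-OHDA-PDAC sample was left out, Sema4d also without 6-OHDA 2.

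The other 3 calls under 6-OHDA rested on few counts. The receptor Epha4 read 25.6, 39.3 and 31.7 without and 6.04 and 2.72 with PDAC cells and fell by 2.81 ± 0.75 (adjusted p = 0.0211), on 4 to 23 counts per sample. Its ligand Efnb2 fell by 2.04 ± 0.61 (adjusted p = 0.0388), although the groups overlapped: 8.53, 116 and 90.4 without and 23.2 and 11.6 with PDAC cells. Plxnb2, a plexin of macrophages and epithelium, went from 25.6, 59.8 and 31.6 to 16.1 and 19.8 (-1.21 ± 0.38, adjusted p = 0.0486). Each was lost without 6-OHDA 2 and without either PDAC sample, Efnb2 and Plxnb2 also without 6-OHDA 3. DESeq2 did not call Efnb2 or Plxnb2, and without the 5% of cells with the most transcripts Epha4 and Plxnb2 did not pass. Plxnb2 was also lost with no gene filter, and Efnb2 with the sample number as a block.

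**Figure D4:**
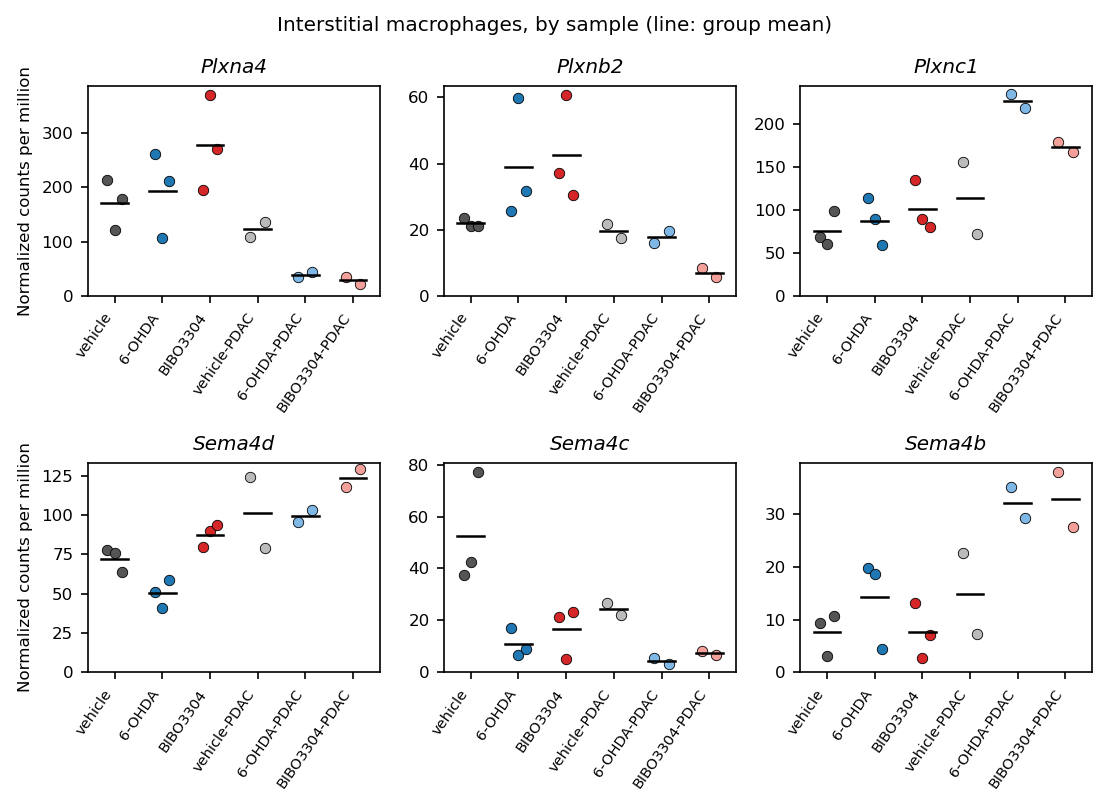
Normalized CPM (vertical axes, from 0) of 6 members in interstitial macrophages, 1 point per sample and a line at each group mean. Plxna4 is lowest in the 4 samples given a drug and PDAC cells, between 22.0 and 44.3, while Plxnc1 is highest in those 4, between 167 and 235.

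PDAC cells against none under BIBO3304 gave the most calls, 14 of 346 member pairs (4.05%), and the background was as high, at 4.25% of all pairs. By direction, 2 were higher (background 2.44%) and 12 lower (background 1.82%). The median log2 difference over the member pairs was -0.11 and over all pairs -0.01. Alveolar fibroblasts and interstitial macrophages held 5 calls each, monocytes 2, and neutrophils and aerocytes 1 each.

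In interstitial macrophages, 18% of all 6443 genes passed under BIBO3304, and 5 of 16 members did. Plxna4 read 196, 370 and 271 without and 34.8 and 22.0 with PDAC cells, again with the groups apart. It fell by 3.33 ± 0.40 (adjusted p = 3.55e-05) and kept its call in all 5 fits that left out a sample and all 7 other settings. Plxnb2 read 37.0, 60.7 and 30.4 against 8.28 and 5.73, a fall of 2.62 ± 0.48 (adjusted p = 0.000975) that was lost without BIBO3304-PDAC 2 (adjusted p = 0.0526). Sema4b, a membrane-bound semaphorin, rose from 13.2, 2.64 and 7.01 to 38.1 and 27.7 (2.06 ± 0.58, adjusted p = 0.0180). Sema6a fell from 50.3, 26.4 and 18.7 to 3.31 and 4.78 (-2.86 ± 0.86, adjusted p = 0.0258). Epha4 fell by 2.61 ± 0.88 (adjusted p = 0.0435), with overlapping groups of 7.94, 68.6 and 4.67 against 3.31 and 4.78. These last 3 each lost their call without either BIBO3304-PDAC sample and without 1 BIBO3304 sample, BIBO3304 2 for Sema4b and Epha4 and BIBO3304 1 for Sema6a, and Epha4 also without the 5% of cells with the most transcripts. The interstitial macrophage markers summed to 954 to 1344 without and 439 to 629 with PDAC cells, the monocyte markers to 88.2 to 198 and 215 to 362, the epithelial markers to 0 to 10.96 and 46.4 to 60.04, and the alveolar macrophage markers to 51.9 to 146 and 231 to 500.3. Their part in these calls was not tested.

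Under vehicle, Plxna4 in the same macrophages read 214, 121 and 178 without and 109 and 136 with PDAC cells, overlapping (-0.49 ± 0.34, adjusted p = 0.756; without vehicle-PDAC 2, -0.64 ± 0.42 and 0.548). The interstitial macrophage markers there summed to 787 to 1202 without and 637 to 654 with PDAC cells. Plxna4 has 3 antisense genes in the mouse annotation (Plxna4os1, Plxna4os2 and Plxna4os3), and the sources used here do not say whether counting used strand.

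In alveolar fibroblasts under BIBO3304, all 5 calls were lower with PDAC cells, in a type where 9.95% of all 12626 genes passed and 45 members were tested. Plxna2 read 137, 114.6 and 146 without and 61.6 and 50.6 with PDAC cells, the groups fully apart. It fell by 1.21 ± 0.18 (adjusted p = 0.00131) and kept its call in all 5 fits that left out a sample and all 7 other settings. The Slit receptor Robo2 went from 962, 1059 and 895 to 605 and 588 (-0.70 ± 0.16, adjusted p = 0.0117). Robo1, its near relative, went from 494, 650 and 435 to 341 and 268 (-0.78 ± 0.18, adjusted p = 0.0129). Their ligands Slit2 (0.04 ± 0.17, adjusted p = 0.913) and Slit3 (0.04 ± 0.17, adjusted p = 0.918) did not pass. The other 2 were the semaphorin receptor Plxna1, at 45.0, 67.8 and 54.0 against 33.2 and 22.8 (-0.92 ± 0.21, adjusted p = 0.0118) and the ephrin-A receptor Epha1, at 24.0, 27.6 and 20.3 against 10.1 and 14.9 (-1.04 ± 0.24, adjusted p = 0.0138), which overlaps Zyx on the other strand. These 4 were lost without BIBO3304-PDAC 2 and when only the compared groups were fitted; Robo1 was also lost without BIBO3304 2 and Epha1 without BIBO3304-PDAC 1.

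The 5 alveolar fibroblast markers moved with these genes. They summed to 3851 to 5546 with BIBO3304 and 2519 to 2865 with BIBO3304 and PDAC cells, to 4474 to 4702 and 2577 to 2878 under 6-OHDA, and to 3398 to 4717 and 3189 to 3326 under vehicle. Adventitial markers in the same cells were 240.2 to 525 without and 400 to 408 with PDAC cells under BIBO3304. There the 7 alveolar macrophage markers summed to 53.4 to 165 without and 195 to 333 with PDAC cells, and the 4 peribronchial markers to 20.7 to 27.1 and 37.8 to 39.6. Their part was not tested. Under 6-OHDA, Plxna2 and Robo2 in alveolar fibroblasts were also lower with PDAC cells, at 63.1 and 82.3 against 103 to 116 and at 712 and 631 against 980.5 to 1053, but neither passed (adjusted p = 0.0939 and 0.0712).

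**Figure D5:**
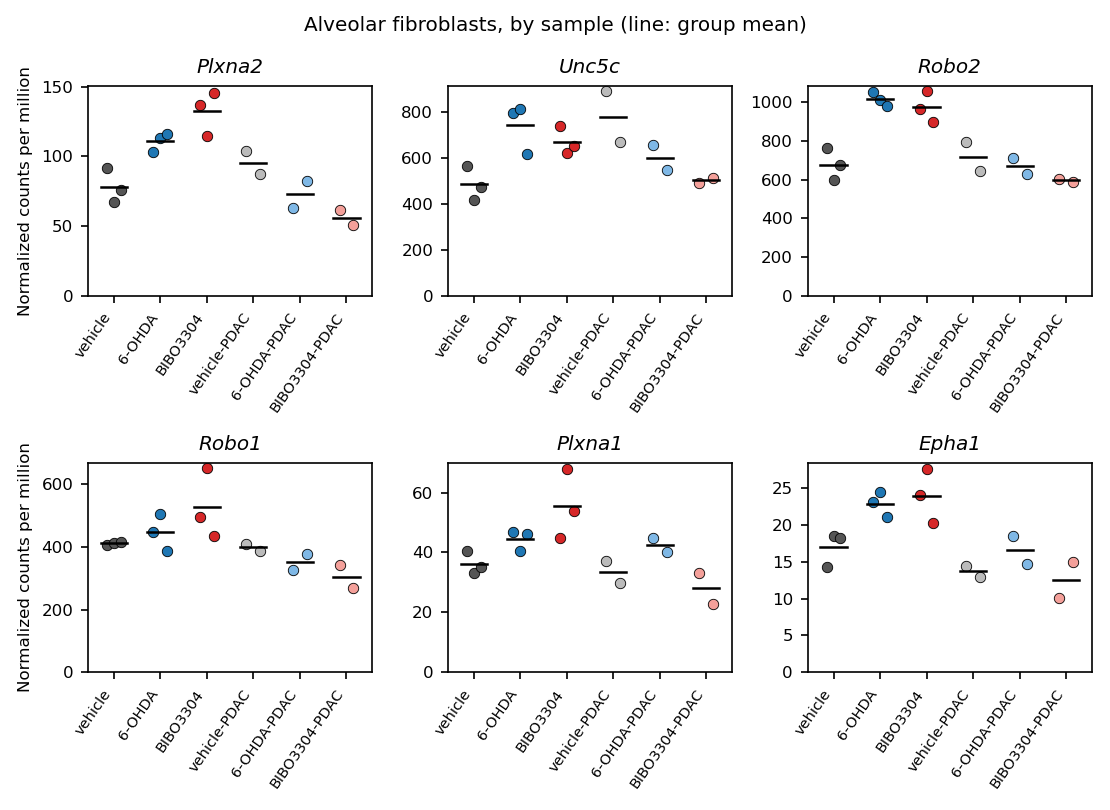
Normalized CPM (vertical axes, from 0) of 6 members in alveolar fibroblasts, 1 point per sample and a line at each group mean. Plxna2 lies between 114.6 and 146 with BIBO3304 alone and at 61.6 and 50.6 with BIBO3304 and PDAC cells, with the vehicle samples between 67.0 and 91.5.

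The remaining 4 calls under BIBO3304 were in other types. Sema7a in aerocytes rose from 264, 347 and 293 to 597 and 720.5, both seeded samples above all 3 others (1.10 ± 0.22, adjusted p = 0.0150), where 0.745% of all 4565 genes passed. It was lost without either BIBO3304-PDAC sample and with no gene filter. In these cells the 4 general capillary markers went from 12.4 to 38.5 up to 122 in both seeded samples, and the aerocyte markers from 2546 to 3074 down to 1413 to 1787, and their part was not tested. Sema4d in neutrophils fell from 777, 980 and 571 to 232 and 250.2 (-1.68 ± 0.34, adjusted p = 0.00574), a call lost without BIBO3304-PDAC 2. The neutrophil markers themselves summed to 3078 to 3596 without and 1108 to 1356 with PDAC cells, and the 7 alveolar macrophage markers to 92.9 to 154 and 303.5 to 356, with Ear2 at 0 in both groups. Their part was not tested. In neutrophils 7.93% of all genes passed and in monocytes 9.04%. In monocytes Plxnb2 went from 66.4, 95.0 and 85.5 to 42.5 and 13.7 (-1.62 ± 0.40, adjusted p = 0.0112) and Epha4 from 31.5, 66.8 and 34.9 to 16.5 and 17.6 (-1.48 ± 0.44, adjusted p = 0.0348). Both were lost without BIBO3304 2 or BIBO3304-PDAC 2, and Epha4 also without BIBO3304-PDAC 1, under DESeq2, with the sample number as a block and when only the compared groups were fitted.

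Whether a drug acted differently with and without PDAC cells was tested as a difference of effects. For 6-OHDA, 0 of 314 member pairs passed by edgeR, beside 0.00744% of all pairs. At an unadjusted p under 0.05 there were 23 (7.32%, against 5.12% of all pairs), and DESeq2 gave 1 call. The 5 with the smallest p were all negative and did not pass: Unc5c (-0.98 ± 0.25), Plxna2 (-0.88 ± 0.24) and Plxnd1 (-0.82 ± 0.24) in alveolar fibroblasts, and Plxna4 in interstitial macrophages (-1.78 ± 0.49) and in smooth muscle cells and pericytes (-2.22 ± 0.72), with adjusted p from 0.180 to 0.607. Without vehicle-PDAC 2 these lay between -0.83 and -2.17, with adjusted p from 0.260 to 0.738. For BIBO3304, 4 of 346 passed (1.16%), beside 0.413% of all pairs, and all 4 were negative. In the types that held them, 0.752% of all genes passed in alveolar fibroblasts, 1.06% in interstitial macrophages and 1.32% in neutrophils. Plxna2 in alveolar fibroblasts lay above vehicle with BIBO3304 alone (114.6 to 146 against 67.0 to 91.5) and below it when PDAC cells were seeded (61.6 and 50.6 against 104 and 87.4), a difference of effects of -1.49 ± 0.25 (adjusted p = 0.0121). Plxna4 in interstitial macrophages differed by -2.84 ± 0.51 (adjusted p = 0.0108), Unc5c in alveolar fibroblasts by -1.09 ± 0.25 (adjusted p = 0.0495) and Sema4d in neutrophils by -1.80 ± 0.45 (adjusted p = 0.0423). For Unc5c the 2 BIBO3304-PDAC samples, 492 and 514, lay below the vehicle-PDAC samples, 890.0 and 669, while the BIBO3304 samples, 623 to 739, lay above the vehicle samples, 419 to 567. Plxna4 in smooth muscle cells and pericytes had the next smallest p and did not pass (-2.96 ± 0.67, adjusted p = 0.106). Without vehicle-PDAC 2 this difference was -2.95 ± 0.75. BIBO3304-PDAC 2 gave it only 1 count, from 24 cells.

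These 4 held to different degrees. Plxna4 was lost only without BIBO3304-PDAC 2 (adjusted p = 0.177) and Plxna2 only without that sample or vehicle-PDAC 1, and all 7 other settings kept both. Of 10 fits that left out a sample, Unc5c kept its call in 2 (without vehicle 1 or vehicle-PDAC 2) and Sema4d in 3 (without vehicle 3, BIBO3304 3 or vehicle-PDAC 2), and both were lost with RLE size factors and when only the compared groups were fitted. Without vehicle-PDAC 2, which left 1 vehicle-PDAC sample, the differences were -1.62 for Plxna2, -2.69 for Plxna4, -1.31 for Unc5c and -1.94 for Sema4d. Further pairs passed only in that fit. The share of all genes passing there is not given, so these pairs are not read as a result about the members. They included Robo2 in alveolar fibroblasts (-0.96 ± 0.24, against -0.79 and adjusted p = 0.0828 with that library). Sema3a, Sema3c, Robo1 and Efnb1 in alveolar macrophages were positive, and each had at most 12.6 normalized CPM there in any sample. The other 3 were Sema3g in alveolar fibroblasts and Plxnd1 and Sema3c in B cells, also positive; with vehicle-PDAC 2 included the pairs in B cells did not pass the filter on low counts.

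Other genes of the guidance pathways were taken from a list of 63 co-receptors, partners and signalling proteins, of which 61 passed the filter. PDAC cells under BIBO3304 gave 44 calls in 704 pairs (6.25%), 18 higher and 26 lower, against the 4.25% of all pairs. Under 6-OHDA there were 7 in 639 (1.10%, background 0.729%), 1 higher and 6 lower. Of the drug comparisons, BIBO3304 without PDAC cells gave 1 call in 704 pairs (0.142%, background 0.307%), Mical1 in type 2 cells. 6-OHDA with PDAC cells gave 5 in 639 (0.782%, background 0.405%), all lower. These were in dendritic cells (Itga1, Pak1 and Tiam1) and interstitial macrophages (Dpysl3 and Srgap3), where 2.83% and 3.52% of all genes passed. The difference of BIBO3304 effects gave 2 in 704 (0.284%, background 0.413%), Nrp1 in B cells and Sdcbp in interstitial macrophages. These 2 calls and the 5 for 6-OHDA with PDAC cells used vehicle-PDAC 2 and are given only with it. No fit that left out a sample is given for the other guidance genes.

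In interstitial macrophages 41 of these genes were tested. With PDAC cells 13 of them passed under BIBO3304, where 18% of all 6443 genes did, and 6 under 6-OHDA, where 9.22% did, each of them lower. The markers of the type summed to 954 to 1344 CPM without and 439 to 629 with PDAC cells under BIBO3304, and to 865 to 934 and 522 to 661 under 6-OHDA, and their part was not tested. Nrp2, the semaphorin co-receptor, read 468, 744 and 348 with BIBO3304 and 154 and 113 with BIBO3304 and PDAC cells, and fell by 1.97 ± 0.34 (adjusted p = 0.000616). Under 6-OHDA it read 222, 138 and 353 against 93.7 and 122 and fell by 1.09 ± 0.34 (adjusted p = 0.0466). Srgap3, a GTPase-activating protein that binds Robo receptors, fell by 1.27 ± 0.33 under BIBO3304 (adjusted p = 0.0122) and by 1.40 ± 0.33 under 6-OHDA (adjusted p = 0.00883).

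In alveolar fibroblasts under BIBO3304 the netrin receptors went in opposite directions. Neo1 read 241.5, 218 and 207 without and 137 and 124 with PDAC cells (-0.76 ± 0.18, adjusted p = 0.0156), while Dcc read 2.35, 5.23 and 4.59 against 15.5 and 18.9 (1.99 ± 0.39, adjusted p = 0.00594). Dpysl2, a cytoskeletal protein downstream of semaphorins, fell from 310.4, 330.0 and 280 to 163 and 149.8 (-0.96 ± 0.14, adjusted p = 0.00131). Under 6-OHDA, Nrp1 in the same cells was higher with PDAC cells, at 378 and 401 against 232.5, 198 and 174 (0.95 ± 0.16, adjusted p = 0.00998); the vehicle samples without PDAC cells lay between, at 259 to 351.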

How the data were processed

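Raw transcript counts per gene and cell were deposited by the authors as 1 table built on mm39, per the submitters' processing notes, which also name Seurat 5.3.0; the sources used here do not give the aligner, the counting settings or the strand. The deposited percent of mitochondrial transcripts was at most 9.99, and every cell had at least 301 genes. The sequencing entries are 16 sublibraries that each mix samples, so samples, groups and cell types were read from the deposited cell table. Of 8740 barcodes found in more than 1 sublibrary, 0 were in more than 1 sample. Doublets were not called.

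Counts were summed per sample and type where it had at least 20 cells, with at least 2 samples per group. All 6 groups were fitted together by edgeR 4.0.16 (R 4.3.3) with filterByExpr and TMM, and p-values were adjusted over all genes of a type and comparison. The fit was tested on simulated data. Alternatives were RLE factors, no gene filter, 50 cells, the compared groups alone, DESeq2 1.42.0, the sample number as a block, leaving out the 5% of cells with the most transcripts, and leaving out each sample.

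The members and lists were chosen with earlier results of these data known. Named by level were up to 4 members per family and the co-receptors, and by test the pairs that passed and those with the 5 smallest p-values of a comparison. The text further describes the levels of other semaphorins and plexins and of members in the cancer cells, Efna5 in alveolar fibroblasts and the pairs called without vehicle-PDAC 2, all chosen after their values were seen. Deviations of same-numbered samples of different groups were correlated in alveolar fibroblasts, general capillaries and alveolar macrophages. The median correlations were -0.019, 0.009 and -0.033, against 0.009, -0.006 and 0 for differently numbered samples. In groups this small the deviations of the samples offset each other. The check therefore cannot decide whether same-numbered samples are paired or share a batch. The main fit did not pair them.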

Additional observations from a re-analysis of the deposited data

Results flagged for a closer look

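By edgeR's test of the difference between BIBO3304 effects with and without PDAC cells, 4 of 346 member pairs passed (1.16%, against 0.413% of all pairs). On the log2 scale the effect with PDAC cells minus the effect without them was -1.49 for Plxna2 and -1.09 for Unc5c in alveolar fibroblasts. It was -2.84 for Plxna4 in interstitial macrophages and -1.80 for Sema4d in neutrophils. Of 10 fits that left out a sample, Plxna4 kept its call in 9, Plxna2 in 8, Sema4d in 3 and Unc5c in 2. Sema4d and Unc5c were also lost with RLE size factors and when only the compared groups were fitted. All 4 used vehicle-PDAC 2, which held 0 cells of the deposited cancer type.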

How the results depend on the processing

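No named pair of a member and a type turned its direction under an alternative that gave a value: with a sample left out, 256 values stayed on their side of the threshold, 70 no longer passed and 4 newly passed, and under other settings these were 341, 22 and 18. For the 28 calls alone, 88 of 158 fits with a sample left out and 171 of 193 under other settings kept the call. With no gene filter the counts of member pairs past the threshold were 3 in place of 0 for 6-OHDA and 4 in place of 1 for BIBO3304 without PDAC cells, 2 in place of 1 for BIBO3304 with them, 30 in place of 14 for PDAC cells under BIBO3304, 1 in place of 0 for PDAC cells under vehicle and for the difference of 6-OHDA effects, and 8 in place of 4 for that of BIBO3304 effects. DESeq2 gave 3 for 6-OHDA and 3 for BIBO3304 without PDAC cells, 3 for BIBO3304 with them, and 1 each for PDAC cells under vehicle and the difference of 6-OHDA effects. Fitting only the compared groups gave 0 for BIBO3304 without and 0 with PDAC cells and 2 for the difference of BIBO3304 effects, and RLE factors also gave 2 for that difference. Without the 5% of cells with the most transcripts there were 3 calls for BIBO3304 without and 1 for 6-OHDA with PDAC cells. With each sample left out in turn the counts ran from 0 to 2 for 6-OHDA and 0 to 2 for BIBO3304 without PDAC cells, 0 to 4 and 0 to 1 with them, 0 to 1, 1 to 6 and 2 to 20 for PDAC cells under vehicle, 6-OHDA and BIBO3304, and 0 to 1 and 0 to 12 for the differences of effects. The share of all genes that passed under these alternatives is not given, and the cause of these moves was not tested. The sample number as a replicate block gave 1 call in place of 0 for 6-OHDA without PDAC cells and left the other counts within 1.5 times; correlations of same-numbered samples ran from -0.458 to 0.348 in 3 types. Of the levels given, 119 moved by less than 1 SD under the alternatives, and, in vehicle samples alone, Efna1 in general capillaries moved from 43.5 to 28.9. Some interstitial macrophage calls rest on low counts, 2 to 35 per sample for Epha4 and Plxnb2. Under BIBO3304 with and without PDAC cells, Sema4b there had 1 to 29 and Sema6a 2 to 19.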
